A study of Mus musculus with 2 samples.

Results

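Transcripts of 42 genes of fatty acid oxidation and of the PPAR receptors were followed in mouse pancreatic islets sequenced from a db/db and a db/m library. The 42 were chosen by name from the 44713 genes of the deposited count table, as enzymes of mitochondrial and peroxisomal oxidation, the PPAR receptors with their coactivators, and known PPAR targets. All 42 were found, and 41 of them had a count in at least 1 library. The db/db mice were C57BL/6 labelled Lepr-/-, and mice without a working leptin receptor become obese and diabetic. The db/m mice were C57BL/6 labelled wild type, although the name db/m is commonly used for lean carriers of a single db allele. The labels state no treatment, age or sex and do not say how many animals gave a library. Triplicates are mentioned in the design text. As each group is represented here by 1 library, differences are those of these 2 libraries and could not be set against replicates. Ratios have an exact 95% interval for counting error alone, and p-values were not computed. Counts in either library can fall because fewer cells of a type were present or because each cell held less of the RNA, and these cannot be told apart in bulk RNA.

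Fatty acids enter the cell through carriers such as Cd36, are bound by Fabp proteins and are activated to acyl-CoA by Acsl enzymes. The carnitine shuttle carries long-chain acyl-CoA into mitochondria, where acyl-CoA dehydrogenases, hydratases, hydroxyacyl-CoA dehydrogenases and thiolases shorten it in repeated cycles, and the electron transfer flavoprotein passes the electrons on to the respiratory chain. Fatty acids bind the nuclear receptors of the PPAR family, which pair with RXR receptors on repeated AGGTCA hexamers and switch on many genes of this route. In beta cells, fatty acid oxidation competes with glucose for mitochondrial use and is held down when glucose is high.

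Sequencing depth was 18233695 counts for db/db and 16271129 for db/m, and after scaling 1 count stood for 0.0516 and 0.0653 CPM (counts scaled to a common library size). CPM are not corrected for transcript length, so an order between genes below is an order of counts, not of transcript numbers. A count of 0 allows a level of up to 0.155 CPM for db/db and 0.196 CPM for db/m (3 counts). The labels name islet cells, and the beta cell genes Ins2, Iapp and Ins1 were read in both libraries, but 10 beta cell markers took 0.166% and 0.147% of the db/db and db/m counts, against 46.0% and 48.1% for 11 markers of acinar cells, which make digestive enzymes. The levels below are those of a mixture in which acinar marker counts far outnumbered beta cell marker counts, and the cell type behind a count of a widely expressed enzyme was not determined.

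Promoter sequences are shown for the genes with the clearest differences and for those with a PPAR-type element, from RefSeq windows of GRCm38.p6 that run from 250 bases before to 50 bases after a start site and were matched for 33 of the 42 genes. The first 3 sequences are the 250 bases before the start of Pdk4 (chr6:5496279-5496528, minus strand), Acadl (chr1:66863310-66863559, minus strand) and Ppargc1a (1 of its start sites, chr5:51567726-51567975, minus strand), which are 3 of the 4 genes that differed at least 2-fold. Capitals mark the stretch nearest to the PPAR response element DR1, which is AGGTCA repeated in the same direction after 1 base, on either strand.
Pdk4: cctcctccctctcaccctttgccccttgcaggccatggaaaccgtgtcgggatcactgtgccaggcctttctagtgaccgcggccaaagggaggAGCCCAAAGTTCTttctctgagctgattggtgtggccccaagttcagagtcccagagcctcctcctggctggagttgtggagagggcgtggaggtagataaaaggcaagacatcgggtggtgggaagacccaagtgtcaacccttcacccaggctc
Acadl: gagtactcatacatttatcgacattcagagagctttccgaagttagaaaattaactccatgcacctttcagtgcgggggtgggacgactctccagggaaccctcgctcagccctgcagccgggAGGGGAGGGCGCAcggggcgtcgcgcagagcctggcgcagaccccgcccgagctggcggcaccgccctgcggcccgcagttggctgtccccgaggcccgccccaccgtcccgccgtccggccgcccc
Ppargc1a: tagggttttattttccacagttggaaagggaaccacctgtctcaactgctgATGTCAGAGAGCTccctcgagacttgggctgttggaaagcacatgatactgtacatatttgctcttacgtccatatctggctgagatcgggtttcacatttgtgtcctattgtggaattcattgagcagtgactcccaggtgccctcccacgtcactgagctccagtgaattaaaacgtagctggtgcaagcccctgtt
These nearest stretches had 4, 5 and 4 mismatches over the 12 fixed bases. Where other stretches were equally near, only the first along the sequence is in capitals. As near a match stood in 74.5% of all promoters for 4 mismatches and in 99.6% for 5.

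With at most 2 mismatches, DR1 was found in the 300-base windows of 4 of 33 genes (Echs1, Etfa, Slc25a20 and Cd36), which is 12.1% of them, against 4.40% of all 27025 genes with a window. The 4 sites are printed with 8 bases on each side along the strand of the match, the 13 bases of the match in capitals.
Echs1 (chr7:140116484-140116512, minus strand): gcccgctcAGGTCACGGGTCCacccctta
Etfa (chr9:55512300-55512328, plus strand): ttgggagtAGGGCAAAGGTAAgggtgtgc
Slc25a20 (chr9:108662134-108662162, plus strand): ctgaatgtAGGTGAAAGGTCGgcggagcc
Cd36 (chr5:17835939-17835967, plus strand): atccaagtAAGTCAGAGGCCAgagaacca
The match began 83 bases before the start site in Echs1, and 77 and 63 bases before it in Etfa and Cd36, and it lay 6 to 18 bases after it in Slc25a20. Of these 4 genes, Echs1 had a ratio of 1.40, Etfa and Slc25a20 had intervals that include 1, and Cd36 had too few counts to be compared. The single hexamer AGGTCA stood in 6 of 33 windows (Acadm, Acadvl, Cd36, Cpt1a, Echs1 and Pparg, 18.2%, against 18.1% of all genes), and the Echs1 match holds it. The ERR element (AGGTCA preceded by TCA) and the FoxO motif GTAAACA were in 0 of the 33 windows, against 0.466% and 4.05% of all genes, and the TATA box TATAAA was in the window of 1 (Pparg, against 15.7%). A match of letters is no measured binding site, and nothing follows from these windows about sequence further away.

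The promoter of Hadha is shown because it lies between the genes of a pair of subunits. Hadha and Hadhb, the alpha and beta subunits of the mitochondrial trifunctional protein, which carries out the last steps on long-chain acyl-CoA, lie head to head on chromosome 5 with 272 bases between them. The 250 bases before the start of Hadha (chr5:30154981-30155230, minus strand) are printed with the 228 bases that also lie within 250 bases before the start of Hadhb in capitals.
Hadha: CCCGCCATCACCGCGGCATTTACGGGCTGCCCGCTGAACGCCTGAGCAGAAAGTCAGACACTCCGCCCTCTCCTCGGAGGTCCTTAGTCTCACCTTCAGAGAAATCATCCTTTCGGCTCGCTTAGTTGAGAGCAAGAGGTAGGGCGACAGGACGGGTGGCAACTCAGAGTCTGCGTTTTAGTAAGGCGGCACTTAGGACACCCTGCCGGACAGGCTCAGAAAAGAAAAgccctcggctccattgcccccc
With this stretch between them, Hadha was read at 46.9 CPM in db/db and 83.1 CPM in db/m islets, and Hadhb at 5.68 and 6.92 CPM.

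The calls below use 3 conditions, a difference of at least 2-fold between the libraries, an interval that excludes 1, and a mean of 1 CPM or more, which 36 of the 42 genes reached. Lower in db/db were Acadl, Angptl4 and Pdk4, 3 of 36 genes (8.33%), against 4.04% of all 10300 genes compared. Higher was Ppargc1a alone, 1 of 36 (2.78%), against 3.83% of all genes. The other 32 genes passed in neither direction, and the share of all genes called in either direction was 7.87%. These are counts of few genes near the background. Smaller differences leaned to lower values. The ratio was below 1 for 21 of 36 genes (58.3%, against 47.6% of all genes), and the interval lay wholly below 1 for 17 (47.2%, against 18.2%) and wholly above 1 for 10 (27.8%, against 20.7%), and it included 1 for 9 of the 36, against 61.1% of all genes. At a limit of 1.5-fold, 11 genes were lower and 3 higher, against 8.87% and 8.63% of all genes. At 4-fold, Pdk4 was lower and no gene higher, against 0.738% and 0.757%. With the interval wholly beyond 2-fold, the same 3 genes were lower and none was higher, against 1.33% and 0.961%. An interval narrows with the count, so the same was read among genes whose mean was 10 CPM or more. There the interval lay below 1 for 15 of 25 genes (60.0%, against 23.0%), above 1 for 6 (24.0%, against 28.9%) and included 1 for 4 of the 25 (against 48.2%), and the ratio was below 1 for 16 (64.0%, against 45.5%). Of these 25, Acadl and Pdk4 were past 2-fold, both lower (2.29% of genes at this level were lower, 0.868% higher and 3.16% either). The median log2 ratio was -0.28 over the 36 genes and 0.02 over all genes compared. With total counts in place of the trimmed mean of M values (TMM) as the scaling, every log2 ratio is larger by 0.18, the median was -0.10 against 0.20 for all genes, and 67.1% of the calls over all genes were higher, against 48.7% with TMM.

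**Figure D1:**
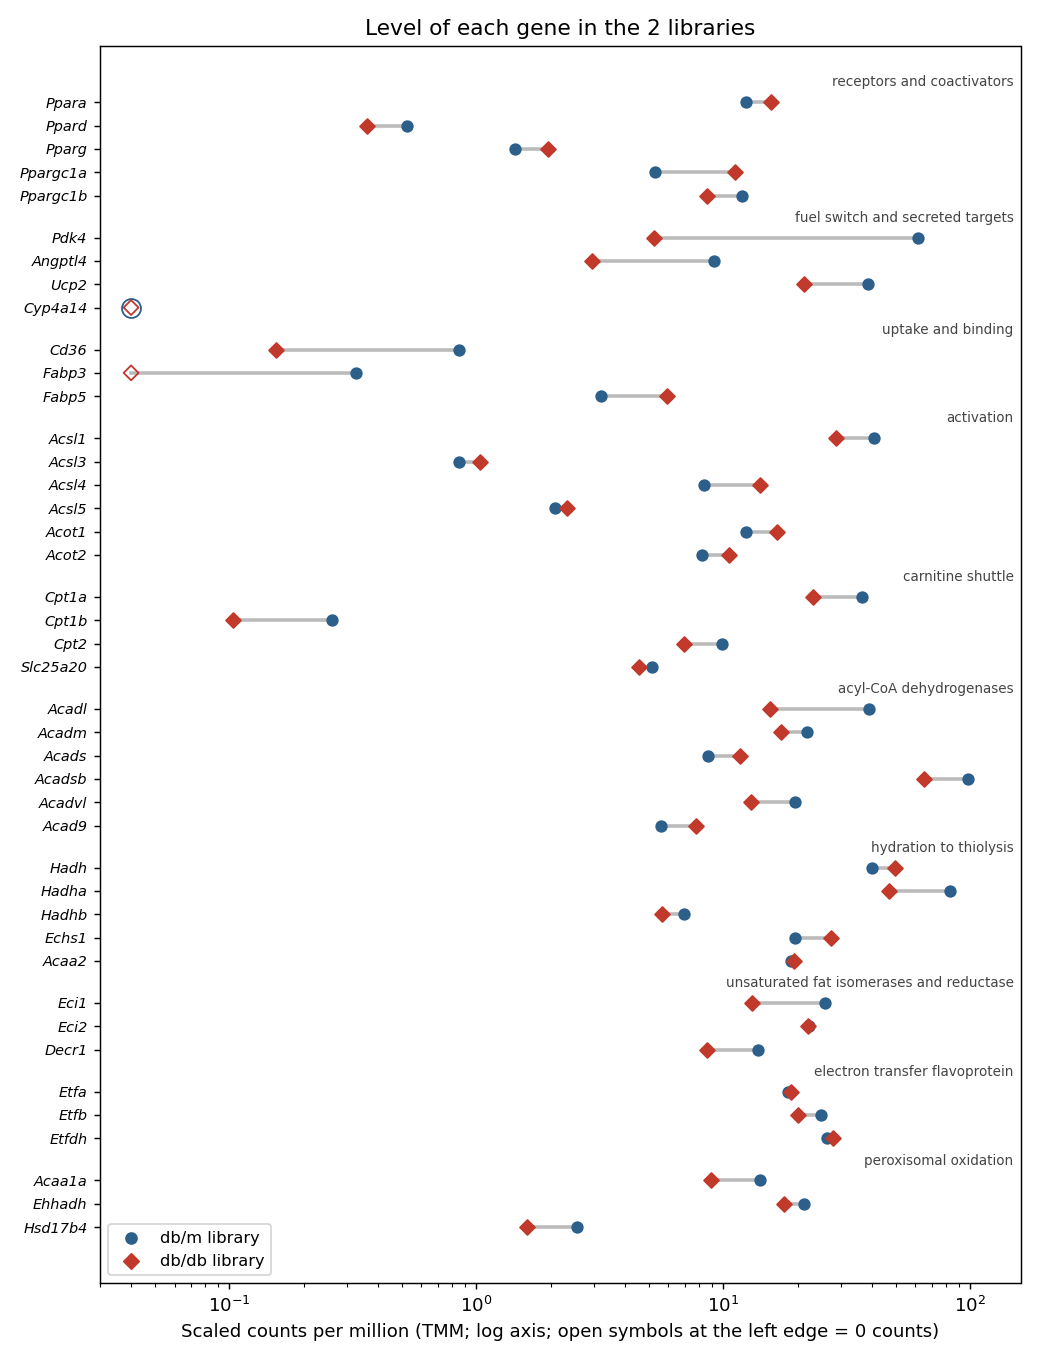
CPM (log axis) of the 42 genes in db/m (blue circles) and db/db (red diamonds), grouped by role, with open symbols at the left edge for 0 counts. Among genes with a mean of 1 CPM or more, Pdk4 has the widest gap, from 61.3 CPM in db/m to 5.26 CPM in db/db, while most enzymes of the oxidation cycle lie close together.

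Of the receptors, Ppara, which drives fatty acid oxidation genes in tissues with high oxidative use, was the one with the most counts. Ppara had 302 counts in db/db and 189 in db/m islets (15.6 and 12.3 CPM), a ratio of 1.26 (1.05 to 1.52). Pparg, the receptor of fat storage, had 38 and 22 counts, and its ratio of 1.36 had an interval of 0.787 to 2.42. Ppard, the widely expressed receptor, had 7 and 8 counts and was not compared. Of the receptors, only Ppara thus had an interval that excludes 1, within the 2-fold limit.

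The coactivators Ppargc1a and Ppargc1b, which bind PPAR and ERR receptors and raise mitochondrial gene expression, stood on opposite sides of 1. Ppargc1a had 217 counts in db/db and 81 in db/m islets (11.2 and 5.29 CPM), a ratio of 2.12 (1.63 to 2.77) that was the 329th highest of 10300. Ppargc1b had 167 and 182 counts (8.62 and 11.9 CPM), a ratio of 0.725 (0.584 to 0.900). Ppargc1a made up 56.5% of the counts of this pair in db/db (exact binomial interval 51.4% to 61.5%) and 30.8% in db/m (25.3% to 36.8%), a share that does not depend on how the libraries are scaled.

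Pdk4 and Angptl4, targets that PPAR receptors share across many tissues, were the lowest of the 36. Pdk4, the kinase that shuts pyruvate dehydrogenase and so spares glucose when fat is burned (GRCm38 chromosome 6, 5483351 to 5496278), was read with 102 counts in db/db and 938 in db/m islets. These were 5.26 and 61.3 CPM, an 11.6-fold lower level (9.48 to 14.4) and the 29th lowest ratio of 10300. In the db/m library Pdk4 took 7.66% of the counts of all 42 genes, behind Acadsb and Hadha alone, and in the db/db library 0.878%.

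Angptl4, a secreted inhibitor of lipoprotein lipase (chromosome 17, 33774900 to 33781575), had 57 and 140 counts (2.94 and 9.14 CPM) and was 3.11-fold lower (2.27 to 4.31). Ucp2, a carrier of the inner mitochondrial membrane, had 413 and 589 counts (21.3 and 38.5 CPM) and was 1.80-fold lower (1.59 to 2.05), just short of a call. Cyp4a14, a fatty acid hydroxylase that PPAR alpha induces in liver, had 0 counts in both libraries. In the same libraries, immediate early genes such as Jun, Fos and Egr1, which tissue handling can induce, were lower in 8 of 8 cases. Their summed level was 56.1 CPM in db/db and 633 CPM in db/m islets, and their part in the values of Pdk4 and Angptl4 was not tested.

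**Figure D2:**
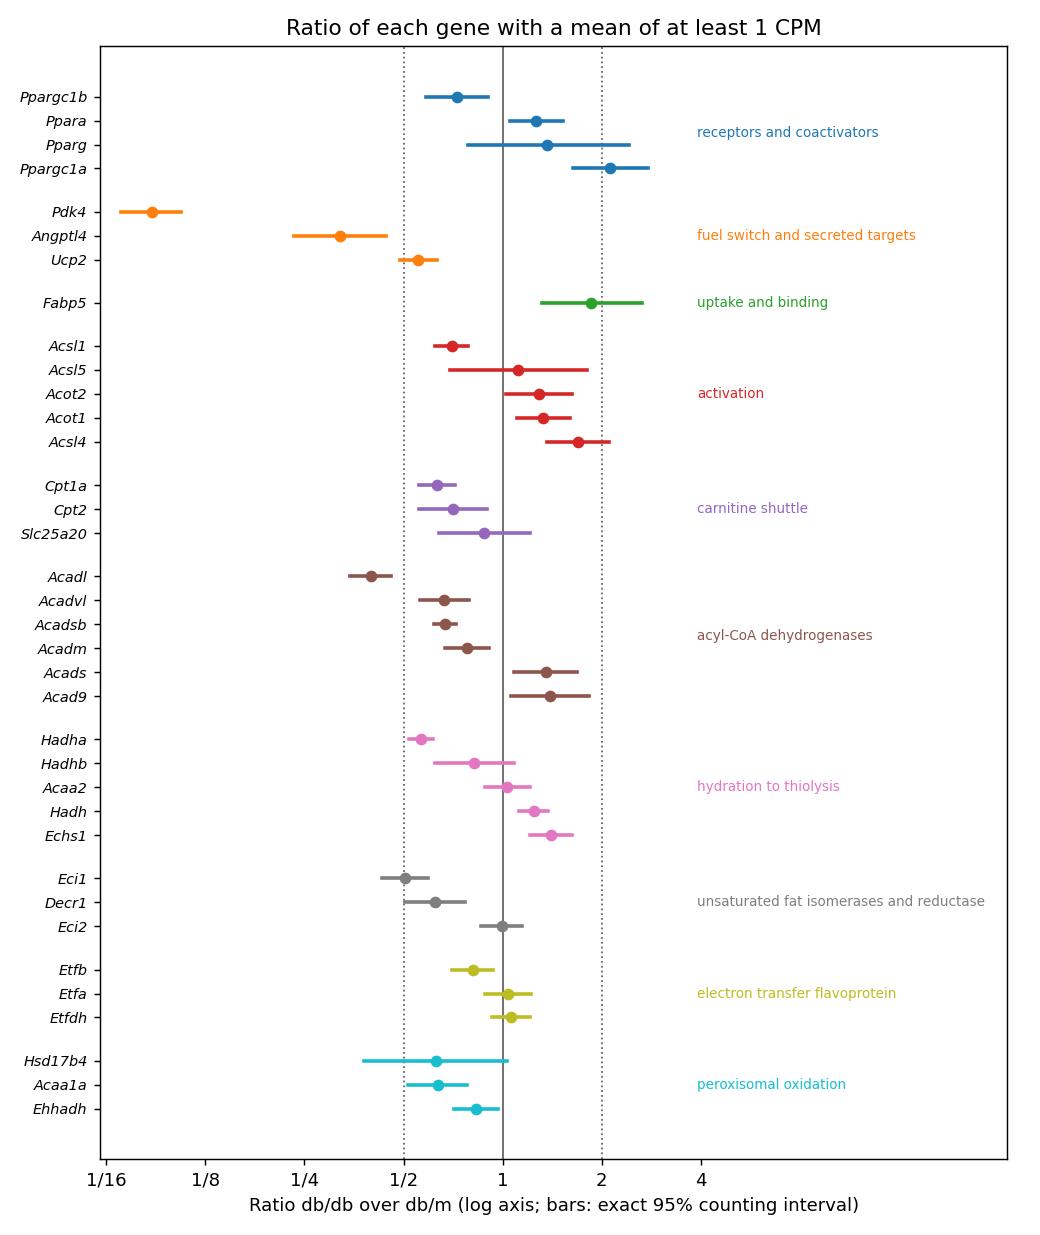
Ratio of db/db over db/m (log axis) with its exact 95% counting interval for the 36 genes compared, coloured by role, with dotted lines at 2-fold. Pdk4, Angptl4 and Acadl lie wholly beyond the lower line, and Ppargc1a is the one gene whose ratio lies beyond the upper line. The ratios of the 3 genes of the carnitine shuttle lie to the left of 1, and for 2 of them the whole interval does.

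Of the genes of uptake and binding followed here, Cd36 and Fabp3 were barely read. Cd36, a fatty acid carrier of endothelial cells, macrophages and fat cells, had 3 counts in db/db and 13 in db/m islets, and Fabp3, the heart-type fatty acid binding protein, had 0 and 5 counts. Both were under the limit of 1 CPM. Fabp5, another binding protein, had 115 and 49 counts (5.94 and 3.20 CPM), a ratio of 1.86 (1.32 to 2.65) that passed 2-fold with total counts. The fatty acid transport proteins Slc27a1 and Slc27a4, from the other lists given below, had more counts than these genes in both libraries. Slc27a1 had 381 counts in db/db and 445 in db/m islets (19.7 and 29.1 CPM), a ratio of 0.677 (0.589 to 0.778). Slc27a4 had 365 and 252 counts (18.8 and 16.5 CPM), a ratio of 1.14 (0.972 to 1.35).

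Markers of cells that carry Cd36 were read at low levels as well, in both libraries. Of 9 fat cell markers, 6 (Adipoq, Car3, Cfd, Cidec, Lep and Retn) had 0 counts in both libraries, and the list summed to 2.74 CPM in db/db and 7.51 CPM in db/m islets, most of it from Lipe. The 9 endothelial markers summed to 9.45 and 11.8 CPM, with Kdr and Plvap lower and none called higher among the 5 compared. Of these 5, Pecam1 and Vwf had ratios above 1, of 1.10 (0.765 to 1.60) and 1.46 (0.714 to 3.12). The 8 macrophage markers found summed to 7.33 and 4.38 CPM. Of these, only Lyz2 reached the mean of 1 CPM, and it was higher, while the other 7 were not compared. The part of these cells in the values of Cd36, Fabp3 and Fabp5 was not tested.

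The enzymes that activate fatty acids differed in direction. Acsl1, the main long-chain synthetase of oxidative tissues and a PPAR target, had 553 counts in db/db and 625 in db/m islets (28.5 and 40.8 CPM), a ratio of 0.699 (0.623 to 0.785). Acsl4, which prefers arachidonic acid, had 274 and 128 counts (14.1 and 8.36 CPM), a ratio of 1.69 (1.37 to 2.10). Acsl1 accordingly took 66.9% of the counts of the pair in db/db (63.5% to 70.1%) and 83.0% in db/m (80.1% to 85.6%).

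Acsl5, a synthetase of mitochondria and endoplasmic reticulum, had 45 and 32 counts with an interval that includes 1, and Acsl3, a synthetase of lipid droplets, had 20 and 13 and was not compared. Acsl3 shares 9777 bases of its span with Utp14b, which had 55 and 54 counts, and reads in the shared stretch may belong to either. The thioesterases Acot1 (cytosol) and Acot2 (mitochondria), which release the fatty acid from CoA again, are similar neighbours on chromosome 12. Acot1 had a ratio of 1.33 (1.10 to 1.60) and Acot2 one of 1.29 (1.03 to 1.62). Acot1 made up 60.9% and 60.1% of their summed counts in the db/db and db/m libraries. No source used here says how reads that fit both copies were counted, so the split between them is uncertain.

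The 3 genes of the carnitine shuttle that could be compared had ratios below 1, and none was called. Cpt1a, the outer membrane transferase that sets the rate of entry, had 449 counts in db/db and 560 in db/m islets (23.2 and 36.6 CPM), a ratio of 0.634 (0.558 to 0.719). Cpt2, the inner membrane transferase, had 135 and 151 counts and a ratio of 0.707 (0.556 to 0.897), and Slc25a20, the carrier between them, had 88 and 79 counts and a ratio of 0.880 (0.642 to 1.21). Cpt1b, the muscle form of the rate-setting enzyme, had 2 and 4 counts, so Cpt1a made up 99.6% and 99.3% of the counts of the 2 isoforms. The summed level of the 4 genes was 34.8 CPM in db/db and 51.9 CPM in db/m islets.

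Of the 6 acyl-CoA dehydrogenases, which take the first step of each cycle, 4 had intervals below 1 and 2 above 1. Acadl, the long-chain enzyme (chromosome 1, 66830839 to 66863309), had 299 counts in db/db and 595 in db/m islets (15.4 and 38.9 CPM) and was 2.52-fold lower (2.19 to 2.90). Acadvl, the very-long-chain enzyme, had 251 and 298 counts and a ratio of 0.666 (0.561 to 0.790). Acadm, the medium-chain enzyme, had 331 and 336 counts and a ratio of 0.779 (0.667 to 0.909).

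Acadsb, which acts on short branched chains from isoleucine breakdown, had the most counts of all 42 genes, with 1261 and 1495 (65.1 and 97.6 CPM) and a ratio of 0.667 (0.618 to 0.719). Acads, the short-chain enzyme, had 227 and 133 counts and a ratio of 1.35 (1.08 to 1.68). Acad9, which also helps to assemble respiratory complex I, had 151 and 86 counts and a ratio of 1.39 (1.06 to 1.83). Acadl and Acadm both had ratios below 1, but unequally, and the share of Acadl in their summed counts went from 63.9% in db/m (60.7% to 67.0%) to 47.5% in db/db (43.5% to 51.4%). An annotated pseudogene and a small nuclear RNA lie within the span of Acadl, and no source used here says whether reads were assigned by strand.

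Later steps of the cycle were split. Hadha, given above with its promoter, had 909 counts in db/db and 1272 in db/m islets, a ratio of 0.565 (0.518 to 0.615). Hadhb had 110 and 106 counts and a ratio of 0.820 (0.622 to 1.08), so the interval of 1 subunit excludes 1 and that of the other does not. Hadha made up 89.2% of the counts of the pair in db/db (87.1% to 91.0%) and 92.3% in db/m (90.8% to 93.7%), and these intervals overlap. The counts are not corrected for transcript length, so the gap between the subunits within a library is no measure of their relative levels.

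Hadh, the short-chain hydroxyacyl-CoA dehydrogenase, which also restrains insulin release in beta cells, had 964 and 614 counts (49.8 and 40.1 CPM), a ratio of 1.24 (1.12 to 1.38). Echs1, the short-chain hydratase, had 532 and 300 counts (27.5 and 19.6 CPM), a ratio of 1.40 (1.21 to 1.62). Acaa2, the thiolase of the last step, had 375 and 287 counts and a ratio of 1.03 (0.883 to 1.21). Echs1 shares 687 bases of its span with Paox, which had 74 and 45 counts, and reads in the shared stretch may belong to either.

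**Figure D3:**
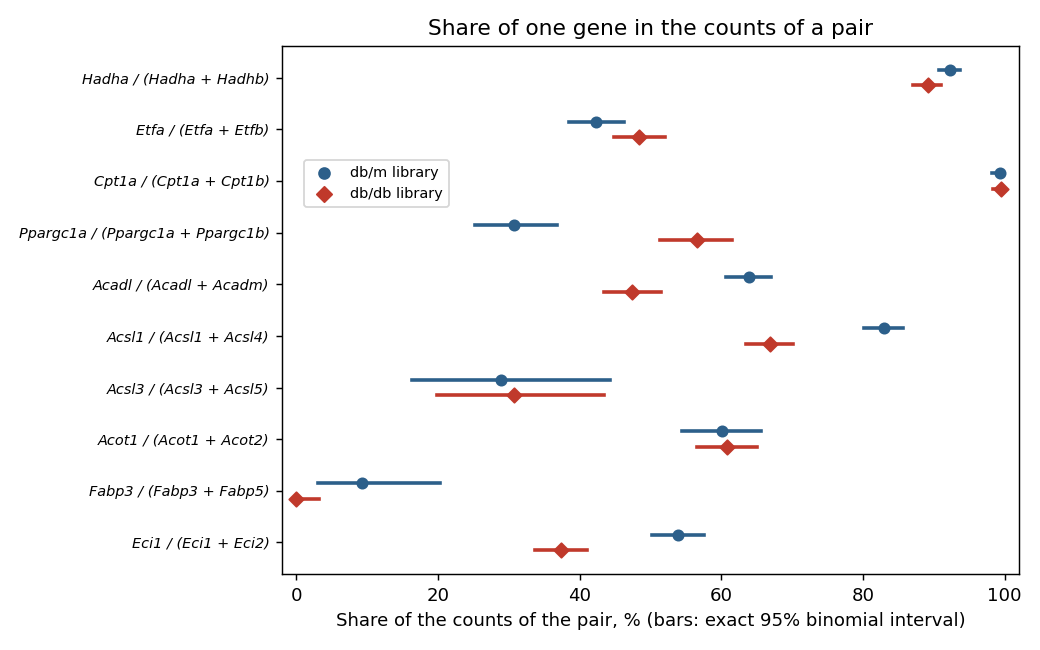
Share of the first gene in the summed counts of 10 pairs of related genes, in percent, for the db/m library (blue circles) and the db/db library (red diamonds), with exact 95% binomial intervals. The intervals of the libraries do not overlap for the pairs led by Ppargc1a, Acadl, Acsl1 and Eci1. How often this happens among pairs of other genes was not computed.

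The auxiliary enzymes for unsaturated fatty acids included the gene just inside the 2-fold limit. Eci1, the mitochondrial enoyl-CoA isomerase, had 254 counts in db/db and 397 in db/m islets (13.1 and 25.9 CPM) and missed the call at a 1.98-fold lower level (1.68 to 2.32). Decr1, the dienoyl-CoA reductase, had 167 and 212 counts and a ratio of 0.623 (0.505 to 0.766). Eci2, an isomerase found in mitochondria and peroxisomes, had 427 and 340 counts and a ratio of 0.993 (0.859 to 1.15), which lay above 1 with total counts. The share of Eci1 in the counts of the isomerases was 37.3% (33.7% to 41.1%) in the db/db library and 53.9% (50.2% to 57.5%) in the db/m library.

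The electron transfer flavoprotein, which takes electrons from all acyl-CoA dehydrogenases, showed small differences, and 2 of its 3 genes had intervals that include 1. Its subunit gene Etfa had 366 and 279 counts with a ratio of 1.04 (0.885 to 1.22), and the dehydrogenase Etfdh 542 and 405 counts with a ratio of 1.06 (0.928 to 1.21). The subunit gene Etfb had 390 and 380 counts with a ratio of 0.811 (0.702 to 0.937). The summed level of the 3 genes was 67.0 CPM in db/db and 69.5 CPM in db/m islets.

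The peroxisomal genes had ratios below 1 in 3 of 3 cases, and none was called. Acaa1a, a peroxisomal thiolase with a close copy in Acaa1b (11 and 5 counts), had 173 and 215 counts and a ratio of 0.636 (0.518 to 0.781). Ehhadh, the bifunctional enzyme that PPAR alpha induces, had 341 and 325 counts and a ratio of 0.829 (0.710 to 0.968), and Hsd17b4, its counterpart for branched chains, had 31 and 39 counts with an interval that includes 1.

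Summed over all 42 genes, the route took 11612 counts in db/db and 12238 in db/m islets, or 599 and 799 CPM, a ratio of 0.750 (0.731 to 0.769). Pdk4 alone carried part of this gap, and without it the ratio was 0.805 (0.784 to 0.826). The 21 genes of the mitochondrial cycle and the shuttle summed to 425 and 544 CPM, a ratio of 0.781 (0.757 to 0.805). These summed ratios are to be read beside that of all genes of the table, which was 0.886 with the same scaling. The 11 acinar markers had a summed ratio of 0.846 (0.845 to 0.846). For the 9 duct markers, among them Krt8, Krt18 and Muc1, the summed ratio was 0.688 (0.663 to 0.713). Of the 8 duct markers compared, 6 had ratios below 1, and Krt19 (1.22, 0.989 to 1.51) and Krt7 (1.28, 0.837 to 1.99) lay above it. With TMM, the 10 beta cell markers summed to 1558 CPM in both libraries (interval of the ratio 0.983 to 1.02). This equality depends on the scaling, as their share of the unscaled counts was 0.166% in db/db and 0.147% in db/m. Beta cell markers were not alike. Of the 10, 6 were lower (Ins1, Mafa, Nkx6-1, Slc2a2, Slc30a8 and Ucn3) and 0 passed the call as higher, with a median log2 ratio of -1.19. Short of the call, the interval lay above 1 for 2 markers, Iapp with a ratio of 1.69 (1.61 to 1.76) and Ins2 with 1.05 (1.03 to 1.07). Mafa (0.206 and 2.16 CPM) reached the mean of 1 CPM only through the db/m library, so its call follows in part from the filter. Most of the beta cell sum came from Ins2, with 20944 and 15757 counts. The part of these cell types in the ratios of the oxidation genes was not tested.

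**Figure D4:**
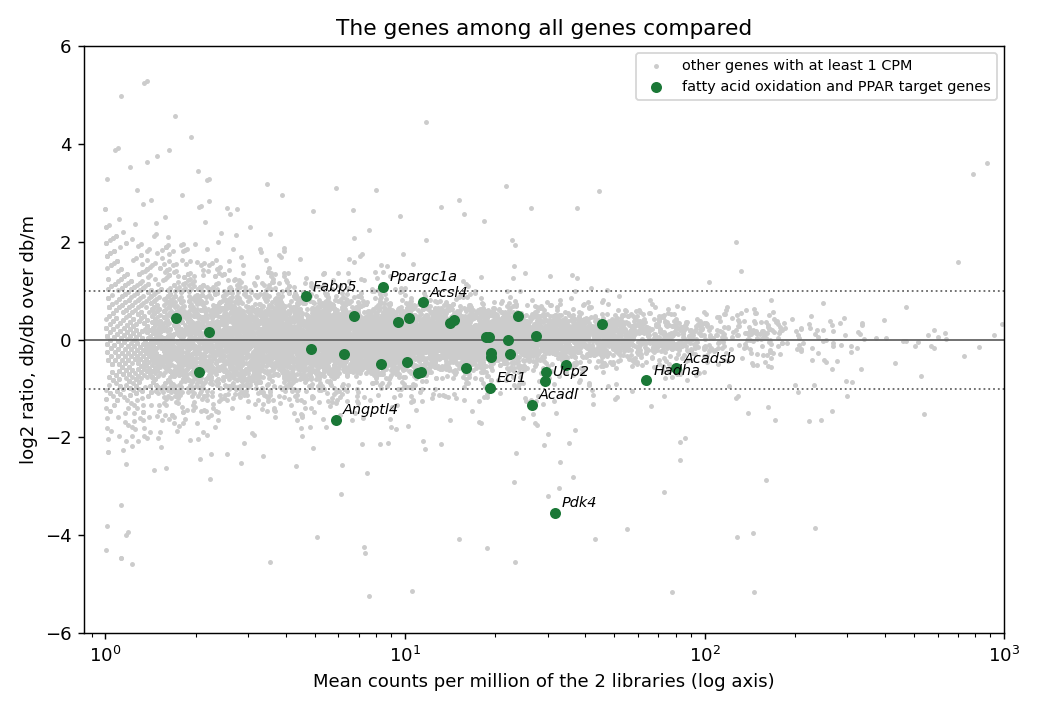
log2 ratio of db/db over db/m against the mean CPM (log axis) for all genes compared (grey) and the 36 genes (green), with dotted lines at 2-fold, leaving out 46 grey genes beyond the axes. Most green points lie within the grey band, and Pdk4 at -3.54 lies far below it.

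Other genes of the route, from 8 lists that exclude the 42 and partly overlap, are given for context. Among 14 compared targets of PPAR receptors, 2 were lower (Creb3l3 and Fgf21), 2 were higher (Plin4 and Plin5) and 10 were neither, with a median log2 ratio of -0.39. Fgf21, a fasting hormone that acinar cells also secrete, had 126 counts in db/db and 234 in db/m islets, a ratio of 0.426 (0.340 to 0.531), and Creb3l3, a liver transcription factor of fasting, 9 and 28. Plin4, a lipid droplet coat protein, went the other way with 1465 and 141 counts, a ratio of 8.21 (6.90 to 9.83), and so did Plin5, which ties droplets to mitochondria, with 46 and 5 counts. Creb3l3 (0.465 and 1.83 CPM) and Plin5 (2.37 and 0.327 CPM) reached the mean of 1 CPM only through the library in which they are high, so their calls follow in part from the filter.

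Of 31 compared peroxisome genes, 1 was higher (Crot, 53 and 20 counts) and 0 were lower, and the median log2 ratio was -0.11. Ech1, a dienoyl-CoA isomerase, had 568 and 834 counts and a ratio of 0.538 (0.483 to 0.600). The partners and corepressors of PPAR receptors had 0 of 18 genes called and a median of -0.03.

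The other genes around pyruvate dehydrogenase had 0 of 11 called and a median of 0.03. Pdk1 and Pdk2, which phosphorylate the same complex as Pdk4, had 1351 and 671 counts in the db/db library and 930 and 407 in the db/m library, with ratios of 1.15 (1.06 to 1.25) and 1.30 (1.15 to 1.48). Of the Pdk genes compared, Pdk4 was the one called.

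Malonyl-CoA, made by acetyl-CoA carboxylase, blocks Cpt1. Of 9 compared genes of malonyl-CoA turnover and of AMPK, 0 were called. Acacb, the carboxylase at the mitochondrial surface, had a ratio of 1.34 (1.25 to 1.44). Among 24 other acyl-CoA and carnitine enzymes, 2 were higher (Acss2 and Slc27a3) and 2 lower (Dbi and Nudt7), with a median of -0.07. Slc27a3 (1.75 and 0.849 CPM) and Nudt7 (0.619 and 2.16 CPM) reached the mean of 1 CPM only through the library where they are high. Their calls thus follow in part from the filter.

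Of 4 ketone body genes, Oxct1, which lets cells burn ketone bodies, was lower with 165 and 263 counts, and 3 were neither. In the axis of lipoprotein lipase, the enzyme that Angptl4 inhibits, Lpl had 1343 and 1024 counts and a ratio of 1.04 (0.955 to 1.12), and 1 of 4 genes was lower (Lipe, the hormone-sensitive lipase, 46 and 106 counts).

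**Figure D5:**
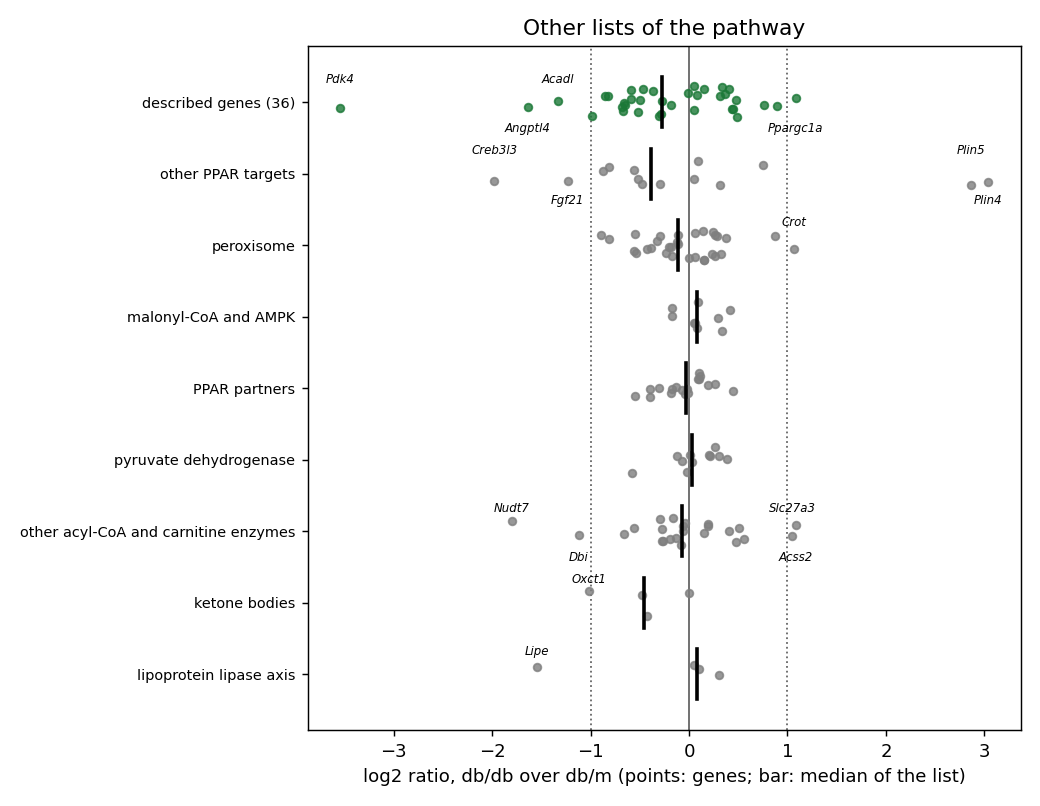
log2 ratio of db/db over db/m for the 36 genes (green) and for the compared genes of 8 other lists of the route (grey), with the median of each list as a black bar, dotted lines at 2-fold and names at the genes called. The list of other PPAR targets spreads widest, from Creb3l3 at -1.98 to Plin4 at 3.04, while no gene of 3 lists (malonyl-CoA and AMPK, PPAR partners, pyruvate dehydrogenase) lies beyond the dotted lines.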

How the data were processed

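RNA was measured in 1 db/db and 1 db/m library of islets, grouped by title. Collagenase digestion, a density gradient and removal of ribosomal RNA came before sequencing, per the labels' protocols. HISAT2 2.0.4 and the builds mm10 and GRCm38 are named in the submitters' processing notes. The authors deposited whole-number counts per gene. How they counted (program, annotation, strand) is not stated in those sources.

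CPM are counts over library sizes multiplied by TMM factors (edgeR 4.0.16, R 4.3.3). The filter used the mean unscaled CPM. Ratios have Clopper-Pearson intervals (Python 3.11.15, scipy 1.17.1), which cover counting error only. Since PCR copies are not independent molecules, the intervals may be too narrow even for that error. The calculation was tested on simulated data. Gene positions and promoters came from RefSeq by symbol (42 and 33 genes), where overlap with another annotated gene was found for 18 of the 42. Levels per transcript length were not computed, because the reference used gives spans only. DESeq2 1.42.0 size factors were among the alternatives.

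The 42 genes, the lists and the alternatives were chosen with earlier results of these data known. Any of the 42 could be named. Of each list of other genes, at most 4 were named, those with at least 1 CPM, an interval excluding 1 and the largest log2 ratio, and of each marker list the 3 most abundant. Some genes that this rule would name are not reported here. Acaa1b, Lpl, Paox, Slc27a1, Slc27a4 and Utp14b, and markers named for their call, their 0 counts or a ratio above 1, were named after their values were seen. Of the 13 marker lists, those not named in the results had summed levels of 213 and 58.8 CPM (alpha cells), 99.6 and 16.7 (delta and PP cells), 9.24 and 8.29 (stromal cells), 0.774 and 4.64 (muscle), 1.29 and 2.22 (T and B cells) and 0 and 0.784 (erythrocytes) in the db/db and db/m libraries.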

Additional observations from a re-analysis of the deposited data

How the results depend on the processing

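The 3 lower calls (Pdk4, Angptl4 and Acadl) were the same genes under all 3 other scalings and when the interval had to lie wholly beyond 2-fold. The count of lower genes was 5 without a filter on low counts (Cd36 and Fabp3 added), 11 at a limit of 1.5-fold, 1 at 4-fold (Pdk4) and 17 when the interval alone decided. The count of higher genes was 2 with total counts and 2 with total counts without acinar and hormone genes (Fabp5 added), 0 at a mean of at least 10 CPM, 0 at 4-fold, 0 with the interval wholly beyond 2-fold, 3 at 1.5-fold and 10 by the interval alone, so the call of Ppargc1a depends on the fold limit and on the filter. The summed log2 ratio of -0.42 was -0.24 with total counts and -0.30 with total counts without acinar and hormone genes. The median and the count of ratios below 1 kept their direction under every alternative tried. This held without the genes that have a near-identical copy and, an alternative chosen after the data were seen, without Pdk4. Without a filter on low counts, 25 of 41 genes had a ratio below 1, against 56.6% of all genes. The median was then -0.30, against -0.12 for all genes. Of single genes, Eci2 alone changed side of 1, with total counts and with total counts without acinar and hormone genes. No paired analysis was possible because each group has 1 library, and for the same reason no library could be left out.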

Other observations

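The order of the genes by counts differed between the libraries. Pdk4 was the 3rd of the 42 genes by counts in the db/m library and the 31st in the db/db library, and Acadl was the 6th and the 17th, while Acadsb was first in both.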
